A study of Mus musculus with 8 samples.

Results

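The suppressor of cytokine signaling (SOCS) family holds 8 genes in mouse, *Socs1* to *Socs7* and *Cish*, which encodes the CIS protein. They were taken from the deposited tables by symbol, with earlier results of these data known. All 8 were found among 23284 genes, each on 1 row and with a successful estimate in all 8 libraries. The cells came from DO11.10 Tg mice, and RNA-seq libraries were made of CD4 T cells in 4 groups (naive, Th1, Th2 and Th17), 2 libraries each. The study's mice were 6 weeks old or older, and no group carried a gene deletion. DO11.10 Tg mice carry a transgenic T cell receptor for an ovalbumin (OVA) peptide. The naive cells were CD4 T cells of the spleen, sorted as CD44low and CD62Lhi.

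The effector cells came from naive cells cultured for 6 days with 0.3 μM OVA peptide and irradiated splenocytes from which T cells had been removed. Th1 cultures contained IL-2 (30 U/ml), IL-12 (100 U/ml) and anti-IL-4 Ab (1 μg/ml). Th2 cultures contained IL-2 (30 U/ml), IL-4 (100 U/ml) and anti-IFNγ Ab (10 μg/ml). Th17 cultures contained IL-6, IL-1β and IL-23 (10 ng/ml each) with anti-IL-4 Ab and anti-IFNγ Ab (10 μg/ml each), and no IL-2 is listed for them. The subsets therefore differ in several cytokines at once, and the effect of a single cytokine cannot be told apart in this design. No label says whether the 2 libraries of a group came from separate mice or cultures, so the p-values measure the spread between these libraries.

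SOCS proteins are the classical negative feedback regulators of cytokine receptors that signal through Janus kinases (JAKs) and STAT transcription factors. A cytokine activates its receptor-bound JAKs, the JAKs activate STATs, and STATs induce SOCS genes, whose products bind the receptor or the kinase through an SH2 domain and recruit a ubiquitin ligase through a SOCS box. *Cish*, *Socs1*, *Socs2* and *Socs3* are the members best known as rapidly cytokine-induced genes, and in CD4 T cells SOCS1 restrains IFNγ signaling, SOCS3 restrains receptors that contain gp130, and CIS is a STAT5 target that restrains IL-2 and IL-4 responses.

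The sequence just upstream of a cytokine-induced SOCS gene is where STAT binding elements are searched for, and the 250 bases before the start of the 3 such members with an entry in the promoter table are therefore shown. They are RefSeq sequences of GRCm38.p6 and are given 5′ to 3′ on the strand of the gene, with matches of TTCNNNGAA in capitals. *Cish* lies on the plus strand (promoter chr9:107296409-107296658), *Socs1* on the minus strand (chr16:10785537-10785786) and *Socs3* on the minus strand (chr11:117969367-117969616).
Cish: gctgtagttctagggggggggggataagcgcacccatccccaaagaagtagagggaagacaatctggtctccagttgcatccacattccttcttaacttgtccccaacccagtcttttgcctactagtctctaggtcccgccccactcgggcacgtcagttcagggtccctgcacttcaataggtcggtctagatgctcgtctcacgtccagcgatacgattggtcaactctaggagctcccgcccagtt
Socs1: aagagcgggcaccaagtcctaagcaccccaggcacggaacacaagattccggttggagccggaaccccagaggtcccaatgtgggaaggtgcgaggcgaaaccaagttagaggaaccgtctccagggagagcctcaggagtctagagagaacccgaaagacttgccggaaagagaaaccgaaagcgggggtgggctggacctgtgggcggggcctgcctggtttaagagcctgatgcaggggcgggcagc
Socs3: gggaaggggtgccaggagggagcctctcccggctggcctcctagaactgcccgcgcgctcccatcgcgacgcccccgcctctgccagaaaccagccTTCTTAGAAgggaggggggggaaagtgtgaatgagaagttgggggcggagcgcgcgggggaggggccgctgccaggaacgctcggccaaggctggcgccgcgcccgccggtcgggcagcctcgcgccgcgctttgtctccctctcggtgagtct
TTCNNNGAA is the palindromic core bound by STAT dimers, and TTCNNNNGAA is the form with 1 more free base. Each pattern is its own reverse complement, so that 1 search covers both strands. *Socs3* held 1 match of TTCNNNGAA, TTCTTAGAA, which starts at position -154 relative to the gene start. The other 2 windows and that of *Socs4* held no match of either pattern, which says only that these letters are not in these windows. The windows of *Cish* and *Socs4* end at 107296658 and 47276919, before the deposited gene starts of 107296688 and 47277142. The bases between were not searched. Of all 32851 promoters of the table, 7.02% held TTCNNNGAA and 5.85% held TTCNNNNGAA in the same 250 bases. The table matched 4 of the 8 members, and *Socs2*, *Socs5*, *Socs6* and *Socs7* were not matched.

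FPKM, the unit of the deposited values, divides a gene's fragments by the length of its exons and by how deeply that library was sequenced, so that levels of different genes can be set side by side. The confidence intervals in the tables imply 14463538 to 21058108 fragments per library, with the naive libraries the shallowest, and each value of a member in an effector library rested on 243 to 17618 implied fragments. Replicates correlated with Pearson's r of 0.953 to 0.960 across genes after the log2 transform. The defining T cell markers (*Cd3d*, *Cd3e*, *Cd3g*, *Cd4*, *Thy1*) summed to 1395 to 2101 FPKM. The lineage markers of Th1 (898 to 1040 FPKM in Th1), Th2 (384 to 417 in Th2) and Th17 (1395 to 1425 in Th17) were each highest in the subset they mark. B cell markers summed to 2.15 to 11.4, dendritic cell markers to 0.728 to 3.90 and NK cell markers to 0.0480 to 0.625 FPKM. *Cd8b1* stood at 90.5 and 52.8 FPKM in the naive libraries and at 8.77 to 12.9 in the effector libraries. The other CD8 T marker, *Cd8a*, was below the filter described next. It was at 2.94 and 1.77 FPKM in the naive libraries and 0.0113 to 0.268 in the effector libraries. The part of CD8 T cells in the comparisons with naive was not tested. In bulk RNA, fewer cells of a type and less RNA per cell cannot be told apart.

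The genes were compared with limma on log2(FPKM + 1), with all 8 libraries in 1 fit of the 4 group means, over 11198 genes with a mean of at least 1 FPKM. All differences below are on that scale, which understates the change of low genes, with p-values adjusted by the Benjamini-Hochberg method over all genes tested and a threshold of 0.05. All 8 members passed the filter. *Socs2* would not have passed on its naive libraries, where it was under 1 FPKM. The 3 comparisons with naive share the naive libraries, so that their values stand side by side and are not independent.

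As a whole, SOCS and CIS mRNA was more abundant in every effector library than in either naive library. The 8 genes summed to 157 and 156 FPKM in naive cells, 564 and 527 in Th1, 877 and 727 in Th2, with 559 and 609 in Th17. Th2 libraries thus had the highest sums, and the Th1 and Th17 libraries overlapped. *Cish*, *Socs1*, *Socs2* and *Socs3* made up 84.5% and 81.0% of the sum in the naive libraries and 95.8% to 97.9% in the effector libraries, whereas the summed *Socs4*, *Socs5*, *Socs6* and *Socs7* went from 24.4 and 29.8 FPKM in naive cells to 17.5 to 22.6 in effector cells.

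The leading member also differed. *Socs3* alone made up 49.7% and 48.1% of the sum in naive cells and 9.61% to 13.5% in Th1 and Th17 cells, with 22.4% and 24.3% in Th2 cells. *Cish* led in every effector library, with 33.6% and 34.5% of the sum in Th2 and 42.7% to 44.1% in Th1 and Th17. The ratio of *Socs1* to *Socs3* FPKM was 0.454 and 0.465 in naive cells, 2.59 and 2.12 in Th1, 1.19 and 0.918 in Th2, with 2.01 and 2.16 in Th17. *Socs1* thus stood below *Socs3* in naive cells, above it in Th1 and Th17 cells and near it in Th2 cells.

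**Figure D1:**
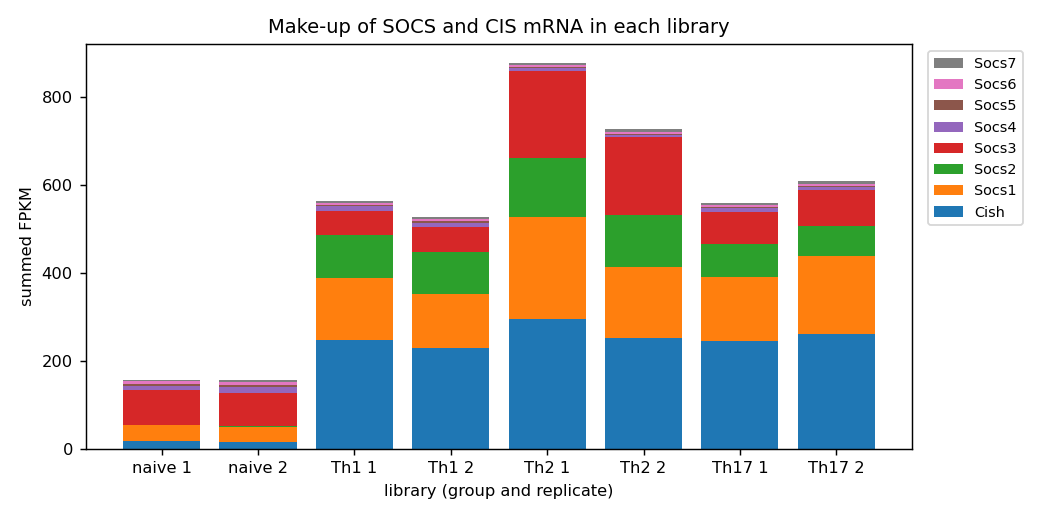
Summed FPKM (y axis) of the 8 SOCS and CIS genes in each library (x axis, group and replicate), with 1 color per gene. The naive bars reach 157 and 156 FPKM with *Socs3* the largest segment, and the effector bars reach 527 to 877 FPKM with *Cish* the largest segment in each.

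Relative to naive cells, 3 members rose and 2 fell in Th1, 4 rose and 3 fell in Th2, and 3 rose and 2 fell in Th17. *Socs2* is among the members that rose in each subset, and its rise was set by the filter. Of all genes tested, 33.8% were higher and 33.5% lower in Th1 than in naive cells, 31.8% higher and 38.7% lower in Th2, and 37.5% higher and 29.8% lower in Th17, so that the counts of members are near the background in each direction. The median difference of the 8 members was -0.03 for Th1, 0.69 for Th2 and 0.09 for Th17, beside -0.01, -0.11 and 0.08 over all genes tested. The Th2 median falls between *Socs3* (1.27) and *Socs7* (0.11), and no member lay near it. The sizes of the differences were uneven. *Cish*, *Socs1* and *Socs2* carried the large ones, and none of the other 5 members differed from naive by more than 1.27 in any subset.

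**Figure D2:**
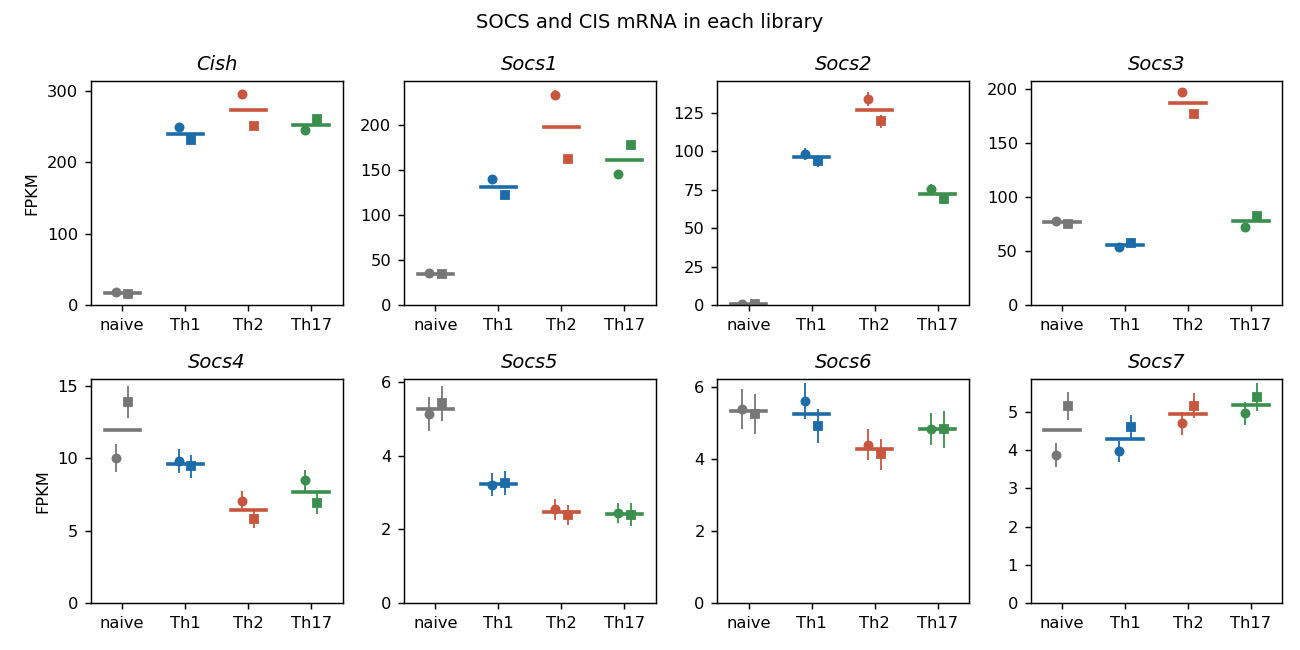
FPKM (y axis, from 0, a scale of its own per gene) of each gene by group (x axis). Circles are replicate 1, squares replicate 2, thin bars the deposited confidence interval and horizontal lines the group mean. *Cish*, *Socs1* and *Socs2* are higher in all 6 effector libraries than in naive cells, *Socs3* is highest in the Th2 libraries, and *Socs5* is highest in the naive libraries.

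*Cish* encodes CIS, which binds phosphorylated receptor chains and is known as a target of STAT5. It lies at 9:107296688-107301961 (mm10). Its level was 18.4 and 15.6 FPKM in naive cells, 249 and 230 in Th1, 295 and 251 in Th2, with 244 and 260 in Th17. All effector libraries stood far above both naive libraries and close to each other, with *Cish* above 97.4% to 97.9% of the genes tested in each. The mean rose 14.1-fold in Th1, 16.1-fold in Th2 and 14.9-fold in Th17 (differences of 3.75, 3.93 and 3.82, SE 0.13, limma adjusted p = 7.6e-07, 5.33e-07 and 6.34e-07).

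Between the subsets, no difference of *Cish* passed the threshold. The difference was -0.18 for Th1 against Th2 (95% interval -0.49 to 0.12), -0.11 for Th17 against Th2 (-0.41 to 0.19) and -0.08 for Th1 against Th17 (-0.38 to 0.23). No IL-2 is listed for the Th17 cultures. *Il2* mRNA was below the filter and not tested. It was at 0.795 and 0.446 FPKM in Th17, 0.177 and 0.118 in naive cells and at most 0.0883 in Th1 and Th2. The part of IL-2 in the *Cish* levels was not tested. By sequence, 9.35% of the 50-base words of the *Cish* transcripts also occur in the transcripts of *Gm17041* and *Gm17040*, which overlap it on the opposite strand. The sample labels name a stranded kit and the methods an unstranded one, so that reads from the overlap may not be told apart.

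*Socs1* encodes the member that inhibits JAK kinase activity directly and restrains IFNγ and IL-4 signaling. It lies at 16:10783808-10785536 (mm10). Its level was 35.5 and 35.0 FPKM in naive cells, 141 and 123 in Th1, 233 and 162 in Th2, with 146 and 178 in Th17. No effector library overlapped the naive range. The mean rose 3.74-fold in Th1 (1.87, SE 0.19, limma adjusted p = 0.000129), 5.62-fold in Th2 (2.43, adjusted p = 2.96e-05) and 4.59-fold in Th17 (2.16, adjusted p = 5.66e-05).

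The Th1 libraries were lower in *Socs1* than the Th2 libraries by -0.56 (SE 0.19, limma adjusted p = 0.0478), a difference near the threshold. The replicates of Th2, at 233 and 162 FPKM, were the most spread of any group, and the Th17 libraries overlapped those of Th2. Over 17 other fits the adjusted p for Th1 against Th2 was 0.00797 to 0.205, and it passed the threshold in 8 of them. It did not pass with any 1 of the 2 naive, the 2 Th1, the 2 Th17 libraries or Th2 replicate 1 left out (adjusted p = 0.0607 to 0.205), without the filter (0.0785) or with only those 2 groups in the fit (0.0867), and passed without Th2 replicate 2 (0.0172). Without Th2 replicate 1 the difference itself was -0.30. The differences of Th17 against Th2 (-0.27, 95% interval -0.72 to 0.18) and Th1 against Th17 (-0.29, -0.74 to 0.16) did not pass the threshold.

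*Socs2* encodes the member known for restraining growth hormone signaling, and in T cells it is also a STAT5-responsive gene. It lies at 10:95411489-95416857 (mm10). It showed the widest range of the family, from 0.840 and 0.845 FPKM in naive cells, which rest on 23 and 19 implied fragments, to 98.3 and 93.8 in Th1, 134 and 119 in Th2, with 75.5 and 69.2 in Th17. By mean level it ranked last of the 8 in naive cells, 3 in Th1 and 4 in Th2 and Th17. The ratio of the means to naive was 114 for Th1, 150.3 for Th2 and 85.9 for Th17, and the differences were 5.72, 6.11 and 5.31 (SE 0.10, limma adjusted p = 1.1e-07, 6.68e-08 and 1.25e-07). These differences are larger in size than those of 99.4%, 99.5% and 99.2% of the genes tested. *Socs2* passed the filter only through effector libraries, so a rise from naive was set by the filter and these shares only describe its size.

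*Socs2* also differed between all 3 subsets, in the order Th2, Th1, Th17, with no overlap of libraries between neighbors. It was lower in Th17 than in Th2 by -0.80 (SE 0.10, limma adjusted p = 0.00107), and this passed in all 17 other fits. It was lower in Th1 than in Th2 by -0.39 (adjusted p = 0.0166, and -0.59 under quantile normalization) and higher in Th1 than in Th17 by 0.41 (adjusted p = 0.0236). Th1 against Th2 missed the threshold without Th1 replicate 1 (adjusted p = 0.0536), Th1 replicate 2 (0.0901) or Th2 replicate 1 (0.0688), within a range of 0.00298 to 0.0901 over 17 other fits. Th1 against Th17 missed it without Th1 replicate 1 (0.124), Th1 replicate 2 (0.0815), Th17 replicate 1 (0.0541) or Th17 replicate 2 (0.125), within a range of 0.00833 to 0.125. Words of 50 bases shared with *Gm9847* or *Gm8000* made up 4.58% of its transcripts.

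*Socs3*, whose product binds gp130 and related receptors together with their JAKs and is induced through STAT3, had a pattern of its own. It lies at 11:117966086-117969366 (mm10), and its promoter held the TTCTTAGAA match shown above. Its level was 78.2 and 75.2 FPKM in naive cells, 54.2 and 57.9 in Th1, 197 and 177 in Th2, with 72.7 and 82.4 in Th17. Both Th2 libraries stood above all others and both Th1 libraries below all others, while the Th17 and naive libraries overlapped. The mean was 2.43-fold that of naive cells in Th2 (1.27, SE 0.11, limma adjusted p = 4.58e-05) and fell by 0.45 on the log2 scale in Th1 (adjusted p = 0.00867). Th17 differed from naive by 0.013 (95% interval -0.24 to 0.27, adjusted p = 0.922), and by -0.081 and -0.16 under median scaling and quantile normalization.

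Between the subsets, *Socs3* gave the largest differences of the family. It was 3.33-fold lower in Th1 than in Th2 (-1.72, SE 0.11, limma adjusted p = 4.27e-05) and 2.41-fold lower in Th17 than in Th2 (-1.26, adjusted p = 0.000258), and both differences passed in all 17 other fits. In size they exceed those of 94.5% and 93.0% of the genes tested. Th1 was lower than Th17 by -0.46 (adjusted p = 0.0216). That comparison missed the threshold without Th1 replicate 1 (0.12), Th1 replicate 2 (0.0722) or Th17 replicate 2 (0.116), within a range of 0.00769 to 0.12, and the fall in Th1 from naive missed it without Th1 replicate 1 (0.0538, range 0.000554 to 0.0538).

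*Socs3* is also expressed by myeloid cells, and the 5 myeloid markers (*Itgam*, *Csf1r*, *Lyz2*, *Emr1*, *Cd14*) summed to 20.8 and 27.8 FPKM in Th2, 17.0 and 17.2 in Th17, 12.2 and 12.8 in naive cells and 7.94 and 8.73 in Th1. The *Socs3* levels were also highest in Th2 and lowest in Th1, but those of the Th17 and naive libraries overlapped. *Lyz2* (19.9 and 11.7 FPKM) and *Emr1* (4.63 and 5.88) were highest in the Th2 libraries, whereas *Csf1r* was highest in naive cells (3.84 and 3.20) and *Cd14* in Th17 (4.41 and 3.75), and none of the 5 was at 0 in any library. The part of these cells in the *Socs3* differences was not tested.

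**Figure D3:**
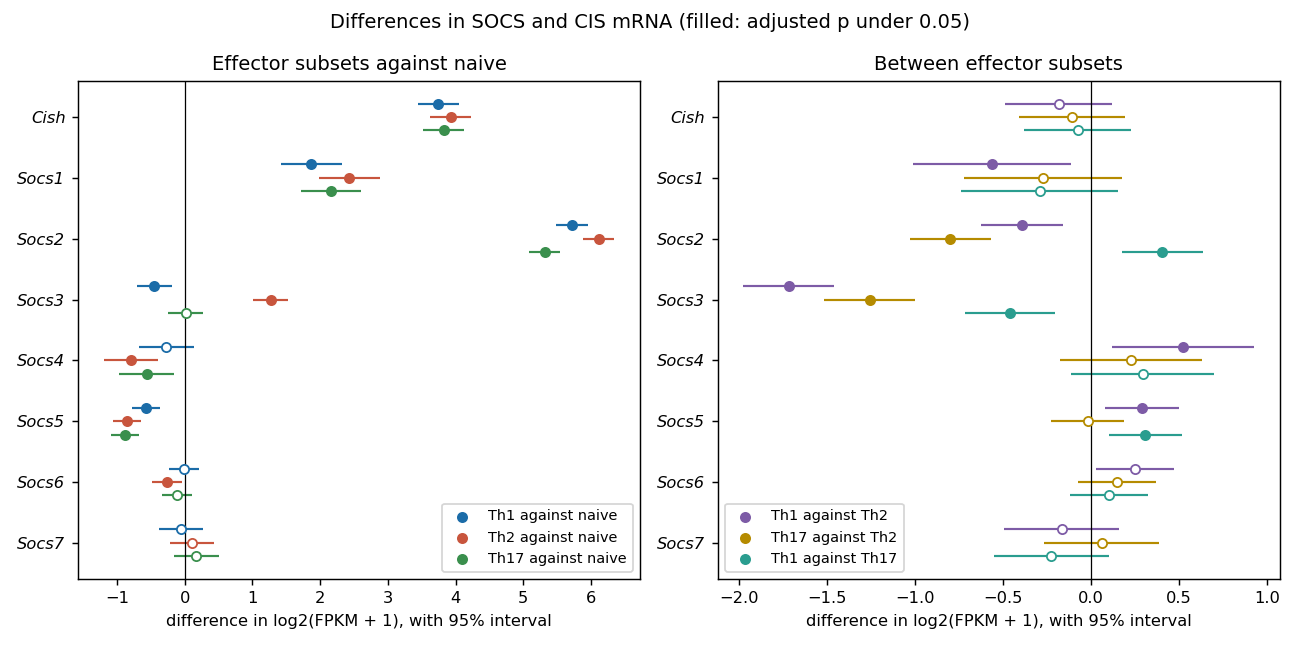
Difference in log2(FPKM + 1) (x axis) with its 95% interval (bars) for each gene (y axis), for each subset against naive (left) and between subsets (right). Filled points passed an adjusted p of 0.05. *Cish*, *Socs1* and *Socs2* lie between 1.87 and 6.11 on the left, and *Socs3* reaches -1.72 on the right.

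*Socs4* and *Socs5*, which are closely related and are known to act on epidermal growth factor receptor signaling, were at lower levels than the 4 members above in every effector library. *Socs4* (14:47277142-47291591) stood at 10.0 and 13.9 FPKM in naive cells, 9.82 and 9.45 in Th1, 7.07 and 5.81 in Th2, with 8.48 and 6.95 in Th17. All effector libraries were below both naive libraries, with the nearest pair at 9.82 and 10.0. It fell by 0.79 in Th2 (SE 0.17, limma adjusted p = 0.00483) and by 0.56 in Th17 (adjusted p = 0.0222), while the difference in Th1 was -0.27 (95% interval -0.67 to 0.14). The Th17 difference missed the threshold without naive replicate 2 (-0.35, adjusted p = 0.116), without Th17 replicate 2 (0.130) and in a fit of those 2 groups only (0.0634), within a range of 0.00780 to 0.130 over 17 other fits. The Th1 difference passed without naive replicate 1 (-0.49, adjusted p = 0.0421, range 0.0421 to 0.802) and was -0.052 without naive replicate 2.

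*Socs4* was higher in Th1 than in Th2 by 0.52 (SE 0.17, limma adjusted p = 0.0443), and its libraries in these groups did not overlap. This passed in 8 of 17 other fits, with adjusted p = 0.0247 to 0.219. It was lost with any 1 of the Th1, Th2 or Th17 libraries left out (0.0605 to 0.219), without the filter (0.0786) and under median scaling (0.0857) and quantile normalization (0.0893). The differences of Th17 against Th2 (0.23, 95% interval -0.18 to 0.63) and Th1 against Th17 (0.29, -0.11 to 0.70) did not pass.

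*Socs5* (17:87107678-87137588), which is also known for binding the IL-4 receptor, had 5.13 and 5.43 FPKM in naive cells, 3.22 and 3.25 in Th1, 2.54 and 2.39 in Th2, with 2.44 and 2.40 in Th17. Its replicates were close, and no effector library overlapped the naive ones. It fell by 0.57 in Th1 (SE 0.09, limma adjusted p = 0.00104), by 0.86 in Th2 (adjusted p = 0.000117) and by 0.88 in Th17 (adjusted p = 0.000112). These 3 differences passed in all 16 other fits that could be run.

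*Socs5* was higher in the Th1 libraries than in the Th2 libraries (0.29, SE 0.09, limma adjusted p = 0.0341) and the Th17 libraries (0.31, adjusted p = 0.0422, and 0.57 under quantile normalization). The first passed in 7 of 16 other fits (adjusted p = 0.0288 to 0.129) and was lost with any 1 of the Th1, Th2 or Th17 libraries left out (0.0524 to 0.129), without the filter (0.0515), under median scaling (0.0822) and with only those 2 groups in the fit (0.0677). The second passed in 9 of 16 (0.00331 to 0.156) and was lost without naive replicate 2 (0.0502), with any 1 of the Th1 or Th17 libraries left out (0.125 to 0.156), without the filter (0.0571) and with only those 2 groups (0.0574). Th17 and Th2 differed by -0.02 (95% interval -0.23 to 0.19), and by -0.32 (adjusted p = 0.0229, range 0.0229 to 0.954) under quantile normalization.

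*Socs6* and *Socs7* form another related pair, known for binding insulin receptor substrates, and their group means spanned the narrowest ranges of the family (0.26 and 0.23). *Socs6*, on chromosome 18, had 5.38 and 5.26 FPKM in naive cells, 5.61 and 4.90 in Th1, 4.40 and 4.12 in Th2, with 4.84 and 4.82 in Th17. The Th2 libraries were the lowest, and the Th1 libraries spanned the naive ones. *Socs6* fell by 0.26 in Th2 (SE 0.09, limma adjusted p = 0.0381), which passed in 7 of 16 other fits (0.0236 to 0.194). It was lost with any 1 of the naive, Th2 or Th17 libraries left out (0.0622 to 0.135), without the filter (0.0598), under median scaling (-0.15, adjusted p = 0.194) and with only those 2 groups (0.0920).

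In Th1 and Th17, *Socs6* differed from naive by -0.02 (95% interval -0.24 to 0.21) and -0.12 (-0.34 to 0.11), the second of which passed under quantile normalization (-0.35, adjusted p = 0.0158, range 0.0158 to 0.482). Between Th1 and Th2 the difference was 0.25 (limma adjusted p = 0.0688), and with the replicate number as a block its adjusted p was 0.0420 (range over 16 other fits 0.0420 to 0.305). Th17 against Th2 (0.15) and Th1 against Th17 (0.10) did not pass. *Socs7* (11:97362550-97398542) had 3.87 and 5.16 FPKM in naive cells, 3.97 and 4.62 in Th1, 4.70 and 5.17 in Th2, with 4.97 and 5.40 in Th17. The naive libraries spanned those of Th1 and nearly those of Th2, and none of the 6 comparisons of *Socs7* passed the threshold, with differences of -0.23 to 0.17. The transcripts of *Socs6* shared 6.14% of their 50-base words with *Gm9449* or *Gm13188*.

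Counted over the family, 2 members were higher and 3 lower in Th1 than in Th2, 0 higher and 2 lower in Th17 than in Th2, and 2 higher and 1 lower in Th1 than in Th17. Of all genes tested, 27.4% were higher and 16.9% lower in Th1 than in Th2, 31.7% higher and 12.0% lower in Th17 than in Th2, and 9.17% higher and 16.0% lower in Th1 than in Th17. The 2 members lower in Th17 than in Th2 were *Socs2* and *Socs3*, and the limma fit gave 0 members higher in that comparison, also at an unadjusted p under 0.05. The median over all genes was 0.11 for Th1 against Th2, 0.18 for Th17 against Th2 and -0.08 for Th1 against Th17. Relative to it, *Socs3* differed by -1.82 between Th1 and Th2 and by -1.44 between Th17 and Th2, and *Socs2* by -0.98 between Th17 and Th2. The share of calls that were higher moved with the scaling, from 72.6% as deposited to 47.7% under median scaling and 50.7% under quantile normalization for Th17 against Th2. It moved from 61.8% to 52.3% and 50.9% for Th1 against Th2, from 36.5% to 53.5% and 49.7% for Th1 against Th17 and from 55.7% to 50.8% and 44.2% for Th17 against naive. No called difference of a member changed direction under either scaling, but 2 members were no longer called higher in Th1 than in Th2 under median scaling (0 higher and 3 lower).

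With 1 library left out, the count of members called in Th1 against Th2 went from 5 to 1 without Th1 replicate 1, Th1 replicate 2 or Th2 replicate 1, to 2 without Th17 replicate 1 or Th17 replicate 2, and to 3 without Th2 replicate 2. Over all genes tested, the share called in that comparison fell as well, from 44.3% to 31.4%, 27.7% and 38.3% without the first 3, 40.5% and 40.4% without the Th17 libraries and 28.6% without Th2 replicate 2. For Th1 against Th17 it went from 3 to 0 without Th1 replicate 1, Th1 replicate 2 or Th17 replicate 2, and to 1 without Th17 replicate 1, beside 25.1% of all genes in the full fit and 13.9% to 15.5% without 1 of these 4 libraries. For Th17 against Th2 it was 2 in each of these fits.

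Over the 8 libraries, the genes whose levels followed those of a member most closely were sought among the 5407 genes whose group means spanned at least 1, with Pearson's r on the log2(FPKM + 1) scale. The libraries share their groups, so r is a description. *Ebi3*, a subunit of IL-27 and IL-35, lay nearest to *Cish* (r = 0.999), at 0.587 and 0.408 FPKM in naive cells and 34.7 to 47.4 in effector cells, followed by the glycolytic enzyme gene *Pgk1* and by *Higd1a* (both r = 0.999). Nearest to *Socs2* were *Bub1*, *Ttk* and *Chek2* (each r = 0.999), kinases of the mitotic and DNA damage checkpoints. *Ebi3*, *Bub1*, *Ttk* and *Chek2* were under 1 FPKM in naive cells and passed the filter only through effector libraries. A rise from naive was thus set by the filter for them, as for *Socs2*. *Bub1* was at 0.0528 and 0.138 FPKM in naive cells, 16.7 and 15.4 in Th1, 17.7 and 18.6 in Th2, with 13.3 and 12.9 in Th17.

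*Syngr1*, *Gnpda1* and the cytokine gene *Il19* (r = 0.993, 0.992 and 0.990) lay nearest to *Socs1*. Of these, *Syngr1* and *Il19* were under 1 FPKM in naive cells and passed the filter only through effector libraries. Nearest to *Socs3* were *Slc25a12*, *Vkorc1* and *4930404I05Rik* (r = 0.995, 0.993 and 0.991), all with their highest levels in Th2, such as the vitamin K cycle enzyme gene *Vkorc1* at 110 and 85.1 FPKM against 13.0 to 24.0 in the other libraries. Within the family, r was 0.994 between *Cish* and *Socs2*, 0.978 between *Cish* and *Socs1*, 0.971 between *Socs1* and *Socs2*, and 0.229, 0.386 and 0.264 between *Socs3* and *Cish*, *Socs1* and *Socs2*. Each r spans the naive and effector libraries together, and r within the effector libraries alone was not computed. Between subsets, every difference of *Socs2* passed the threshold and none of *Cish* did. *Socs4* to *Socs7* spanned under 1 and were not ranked in this way.

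The genes that surround SOCS proteins were then described by lists. As background for all list counts, 33.8% of all genes tested were higher and 33.5% lower in Th1 than in naive cells. It was 31.8% and 38.7% in Th2 and 37.5% and 29.8% in Th17, with medians of -0.01, -0.11 and 0.08. Between subsets it was 27.4% and 16.9% (Th1 against Th2), 31.7% and 12.0% (Th17 against Th2) and 9.17% and 16.0% (Th1 against Th17). Among the JAKs and STATs, 2 rose and 4 fell of 11 in Th1, 4 rose and 4 fell in Th2, and 4 rose and 2 fell in Th17, with list medians of -0.25, 0.01 and -0.09. *Jak3*, the kinase bound to the common gamma chain, went from 39.8 and 61.4 FPKM in naive cells to 173 to 358 in effector libraries (1.90 in Th1, 2.76 in Th2 and 2.30 in Th17). *Jak1* fell by 1.18 in Th1, by 1.55 in Th2 and by 1.47 in Th17. *Jak2* rose by 1.61 in Th2 and by 1.03 in Th17, and was lower in Th1 than in Th2 by -1.73.

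Between subsets, 3 JAK and STAT genes were higher and 5 lower in Th1 than in Th2, 3 and 1 in Th17 than in Th2, and 1 and 3 in Th1 than in Th17. *Stat4*, the IL-12 signal carrier, was higher in Th1 than in Th2 by 1.48 and in Th17 than in Th2 by 0.75. *Stat5a* and *Stat3* were lower in Th1 than in Th17, by -1.13 and -0.82. The product of *Stat3* is known to induce *Socs3*. *Stat3* mRNA was at 104 and 119 FPKM in Th2 and 79.5 and 96.5 in Th17. It was at 45.6 and 52.7 in Th1 and 42.8 and 59.7 in naive cells. A link with the *Socs3* levels was not tested.

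Of 19 receptor chains that use JAKs, 18 were tested, of which 2 (*Il12rb2* and *Il23r*) were under 1 FPKM in naive cells and passed the filter only through effector libraries. In Th1 9 rose and 7 fell, in Th2 8 rose and 9 fell, and in Th17 8 rose and 7 fell, with medians of 0.24, -0.26 and 0.00. The IL-2 receptor chains *Il2ra* and *Il2rb* were among the chains that rose. *Il2ra* went from 4.55 and 5.67 FPKM in naive cells to 604 to 865 in effector libraries (6.64, 6.87 and 7.12), and *Il2rb* rose by 4.93, 4.95 and 4.82. *Il12rb2* rose in all 3 subsets (7.03, 4.37 and 6.20).

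Between subsets, 4 chains were higher and 5 lower in Th1 than in Th2, 4 and 3 in Th17 than in Th2, and 4 and 6 in Th1 than in Th17. *Il6st*, which encodes the gp130 chain bound by SOCS3, was at 1.82 and 2.69 FPKM in Th17 against 13.4 and 15.6 in Th2 (-2.26) and 13.5 and 19.6 in Th1. *Ifngr1* was higher in Th1 than in Th2 by 2.67, whereas its partner *Ifngr2* was lower, by -2.82, and stood at 1.55 and 1.19 FPKM in Th1. *Il23r* was at 28.9 and 30.3 FPKM in Th17 and listed at 0 in the naive and Th2 libraries.

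Of 21 cytokines that signal through JAKs, 12 were tested, and 11 of these were under 1 FPKM on average in naive cells. They passed the filter only through effector libraries, so that a rise from naive was set by the filter, and no counts or medians are given for this list. The other, *Osm*, was at 16.2 and 16.7 FPKM in naive cells and 57.7 to 88.8 in effector libraries. *Il24*, an IL-10 family cytokine, rose by 6.84, 8.50 and 8.25, and *Lif*, which acts through gp130, rose by 5.37, 7.99 and 7.06, with 341 and 313 FPKM in Th2. *Ifng* was at 802 and 614 FPKM in Th1 and at most 2.19 elsewhere, *Il4* at 129 and 97.6 in Th2 and at most 5.0 elsewhere, and *Il22* at 238 and 420 in Th17 and at most 1.71 elsewhere. *Il10* was at 160 and 116 FPKM in Th2, 43.7 and 38.1 in Th1 and 0.901 and 0.827 in Th17.

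Of 12 other genes known as STAT targets, 9 rose and 2 fell in Th1, 8 and 3 in Th2, with 9 and 1 in Th17 (medians 2.22, 1.45 and 2.01). Of these only *Nfil3* was under 1 FPKM in naive cells. It rose by 6.09, 7.10 and 5.65 and *Gadd45g* by 6.35, 4.55 and 5.12. *Irf1*, an interferon-induced transcription factor gene, fell by 1.41 in Th1, by 3.07 in Th2 and by 3.41 in Th17. In Th1 against Th2, 8 were higher and 1 lower, in Th17 against Th2 5 and 3, and in Th1 against Th17 8 and 0, with *Furin* (3.81, 1.74 and 2.07) and *Gbp2* (3.09 and 2.18 in the first 2) among those higher. In the last comparison 1 gene, *Ccnd2*, was lower at an unadjusted p under 0.05.

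**Figure D4:**
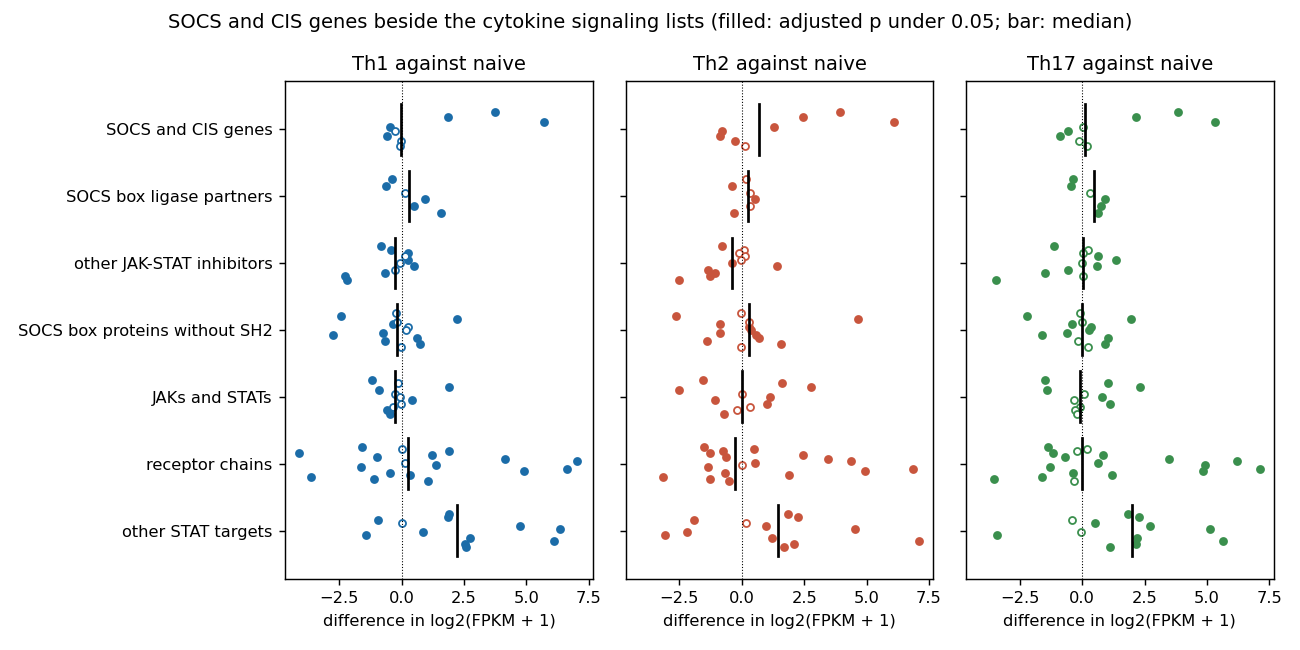
Difference in log2(FPKM + 1) from naive (x axis) of each tested gene of the SOCS and CIS genes and of 6 lists (y axis), in 1 panel per subset and without the cytokines. Filled points passed an adjusted p of 0.05 and the black bar is the median of the list. The medians of the other STAT targets (2.22, 1.45 and 2.01) lie to the right of 0, and those of the other lists lie between -0.39 and 0.69.

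The SOCS box acts through elongins B and C, CUL5 and RNF7. Of 6 such ligase partners, 3 rose and 2 fell in Th1, 1 rose and 2 fell in Th2, and 3 rose and 2 fell in Th17 (medians 0.32, 0.24 and 0.48). Elongin C (*Tceb1* in the files) rose by 0.96, 0.53 and 0.90. *Cul5* fell by 0.64 in Th1, by 0.38 in Th2 and by 0.47 in Th17. *Ube2f*, the NEDD8-conjugating enzyme that acts on CUL5, had 43.2 and 44.5 FPKM in Th1, 21.3 and 23.4 in Th17, 14.2 and 13.4 in naive cells and 10.7 and 11.4 in Th2, with no overlap between groups. It was higher in Th1 than in Th2 by 1.90 and in Th17 than in Th2 by 0.96. Counts between subsets were 1 higher and 1 lower, 1 and 1, and 1 and 0 for Th1 against Th2, Th17 against Th2 and Th1 against Th17, the 0 also at an unadjusted p under 0.05 in limma.

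Other inhibitors of JAK and STAT signaling moved in both directions. Of 11, 3 rose and 5 fell in Th1, 1 rose and 6 fell in Th2, and 3 rose and 4 fell in Th17 (medians -0.24, -0.39 and 0.04), with 4 higher and 3 lower in Th1 than in Th2, 5 and 4 in Th17 than in Th2, and 2 and 3 in Th1 than in Th17. The phosphatase gene *Ptpn2* rose by 0.50 in Th1, by 1.40 in Th2 (to 86.1 and 92.4 FPKM) and by 0.60 in Th17. *Ptpn1* rose by 0.25 in Th1 and by 1.36 in Th17 (to 114 and 121 FPKM). *Usp18*, an interferon-induced inhibitor, fell by 2.18, 2.54 and 3.44. *Sh2b3* (LNK) fell by 2.26 in Th1 and by 1.29 in Th2, and was higher in Th17 than in Th2 by 1.33.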

How the data were processed

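The authors sequenced RNA of 2 libraries in each of 4 groups (50 bp reads), aligned it to mm10 with Bowtie 0.12.8 and TopHat 1.3.2, and computed FPKM with Cufflinks 2.0.2, as the methods and the submitters' processing notes say. The annotation is not given in the sources used here. The deposited unit is FPKM per gene, with its confidence interval.

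Rows of 1 symbol were summed (23746 rows, 23284 genes). The values were tested with limma 3.58.1 in R 4.3.3 (lmFit, eBayes with a mean-variance trend, two-sided) on log2(FPKM + 1), over 11198 genes with a mean of at least 1 FPKM, and adjusted by Benjamini-Hochberg. Implied fragments were estimated from the intervals and cover counting error alone. The fit was first run on simulated data, with independent noise and 200 of 11198 genes changed by 2 on the log2 scale. It recovered 97% of these, and 2.51% of its calls were false. The simulation lacked the shared replicate deviations and the many called genes of the real data. Same-numbered libraries deviated together across genes (r of replicate differences 0.138 to 0.294 over 6 pairs of groups), so a fit with the replicate number from the labels as a block was run too. Overlaps were read from GENCODE M21 and promoters from RefSeq. Tables were made with Python 3.11.15 and pandas 2.3.3.

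The members and the lists were chosen with earlier results of these data known. Named were all 8 members, up to 3 genes per list and comparison with the largest called difference, the 3 genes nearest in pattern to each member spanning at least 1, and cell type markers. *Il2*, *Stat3* as levels, *Ccnd2* and levels of named genes in other groups were added after their values were seen. Other settings tried were 0.1 as the pseudocount, no filter, a filter at 5 FPKM, median scaling, quantile normalization, only the 2 groups compared, no trend, the replicate block, the top row per symbol and each library left out.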

Additional observations from a re-analysis of the deposited data

Results flagged for a closer look

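For 5 members the change from naive differed between effector subsets, by the limma test of the difference between the subsets themselves. Of all 11198 genes tested, 59.9% passed in at least 1 of the same 3 comparisons, so that 5 of 8 is near the background. The naive libraries drop out of that difference, so each value below is a subset against another. For each of them only the widest pair is given, with Benjamini-Hochberg adjusted p-values. *Socs3* differed by -1.72 between Th1 and Th2 (adjusted p = 4.27e-05), with both Th2 libraries above all others. *Socs2* differed by -0.80 between Th17 and Th2 (adjusted p = 0.00107).

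The other 3 were close to the threshold. *Socs1* differed by -0.56 (adjusted p = 0.0478) and *Socs4* by 0.52 (adjusted p = 0.0443) between Th1 and Th2, and *Socs5* by 0.31 between Th1 and Th17 (adjusted p = 0.0422). With 1 library left out, 7 of 8 fits lost the call of *Socs1*, 6 of 8 that of *Socs4* and 5 of 8 that of *Socs5*, with the libraries named beside each result.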

How the results depend on the processing

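Of 414 values of a member under another setting, 388 kept both direction and side of the threshold, 14 no longer passed it, 3 newly passed it and 9 changed direction. With 1 library left out, 332 of 384 kept both, 43 no longer passed, 1 newly passed and 8 changed direction. None of the values that changed direction belonged to a called difference. In the limma fits, the count of members called in Th1 against Th2 (5) was 2 without the filter, 3 under median scaling and 3 with only the 2 groups compared, and 1 to 4 with 1 library left out. Over all genes, 44.3% were called in that comparison, 31.8%, 42.8% and 38.6% under those 3 settings and 27.7% to 44.1% with 1 library left out. In Th1 against Th17 (3) the count of members was 0 to 3 with 1 library left out, beside 25.1% of all genes and 13.9% to 24.6%. The counts of called genes of the 7 lists stayed within 1.5 times under the settings run for them.

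Median scaling turned the differences of *Cish* in Th1 against Th17 to 0.053, *Socs3* in Th17 against naive to -0.081, *Socs6* in Th1 against naive to 0.013, *Socs6* in Th17 against Th2 to -0.042 and *Socs7* in Th17 against Th2 to -0.13. Quantile normalization turned *Socs3* in Th17 against naive to -0.16, *Socs6* and *Socs7* in Th17 against Th2 to -0.079 and -0.17, and *Socs7* in Th17 against naive to -0.078. With 1 library left out, the range crossed 0 for *Cish* in Th17 against Th2 (-0.22 to 0.0064), *Socs3* in Th17 against naive (-0.075 to 0.10), *Socs5* in Th17 against Th2 (-0.051 to 0.012), *Socs6* in Th1 against naive (-0.097 to 0.066), *Socs7* in Th1 against naive (-0.22 to 0.12) and *Socs7* in Th2 against naive (-0.056 to 0.28). The cause was not tested.

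With the replicate block, the paired fit called 6 members in Th1 against Th2, adding *Socs6* (adjusted p = 0.0420), beside 53.4% of all genes, and it changed no other call of a member. With the filter at 5 FPKM, *Socs5*, *Socs6* and *Socs7* were below the filter and have no value there. The depth of the *Socs2* value in naive cells (23 and 19 implied fragments) limits its fold change more than the other values.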

Other observations

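Beyond the SOCS family proper, other proteins carry a SOCS box without an SH2 domain. Of 25 such genes (SPRY domain, WD40 and ankyrin repeat proteins and RAB40 members), 13 were tested with limma, of which 1 (*Spsb2*) was under 1 FPKM in naive cells. In Th1 3 rose and 5 fell, in Th2 6 rose and 4 fell, and in Th17 5 rose and 4 fell, with medians of -0.17, 0.30 and 0.01. *Asb2*, an ankyrin repeat member, had 0.895 and 1.11 FPKM in naive cells, 6.80 and 10.2 in Th1, 51.2 and 47.7 in Th2, with 5.47 and 8.51 in Th17. It rose by 2.23 in Th1, by 4.66 in Th2 and by 1.97 in Th17, and both Th2 libraries stood above all others. *Asb13* fell by 2.41, 2.65 and 2.19, from 41.8 and 37.4 FPKM in naive cells to 5.39 to 8.19 in effector cells.

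*Spsb1*, a SPRY domain member, had 11.2 and 13.6 FPKM in naive cells, 1.04 and 0.984 in Th1, 16.6 and 21.0 in Th2, with 3.07 and 3.60 in Th17, with no overlap between groups. It was lower in Th1 than in Th2 by -3.29 and in Th17 than in Th2 by -2.18 (Benjamini-Hochberg adjusted p = 1.01e-05 and 8.66e-05), and lower in Th1 than in Th17 by -1.11. *Asb2* was lower than in Th2 by -2.43 in Th1 and by -2.68 in Th17. Between subsets, 2 of the 13 were higher and 4 lower in Th1 than in Th2, 3 and 3 in Th17 than in Th2, and 0 and 1 in Th1 than in Th17, with 0 also higher at an unadjusted p under 0.05.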
